A study of Saccharomyces cerevisiae S288C with 71 samples.

Results

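The cytosolic ribosome of Saccharomyces cerevisiae is built from ribosomal RNA and proteins of a large and a small subunit, which are named RPL and RPS. Most of these proteins are made from a pair of near-identical genes, an A and a B copy left by an ancient duplication of the genome, and their transcripts are among the most abundant of growing cells. Transcription of these genes depends on the DNA-binding protein Rap1 with Fhl1, Ifh1 and Sfp1, and follows nutrient signals that pass through protein kinase A and TORC1. It is known to be high in cells growing on glucose and to drop when glucose runs out.

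The genes described here are the rows of the deposited table whose symbol is RPL or RPS followed by a number and at most the letter A or B. They numbered 132 of 5803 genes in the table. The large subunit had 76 genes and the small subunit 56. Together they encode 75 proteins, 43 of the large and 32 of the small subunit, of which 57 are encoded by an A and a B copy and 18 by a single gene. All 132 passed the filter on low values, none stood at the floor of the table in any library, and 88 contain an intron. Of the 132 genes, 40 are at least 95% identical in coding sequence to their other copy, so the division of reads between those copies is uncertain. Among these are the copies of RPL1, RPL2, RPL4, RPL7, RPL8, RPL11, RPL14, RPL18, RPL35, RPL41 and RPL42 and of RPS4, RPS6, RPS19, RPS23, RPS24 and RPS30, and every value given below for 1 of them carries this limit.

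RNA was measured in 12 strains of the S288C background at 0 h (log phase), 12 h and 16 h. All strains were grown at 30 C in yeast nitrogen base with ammonium and 2% glucose, and sampling ran through the diauxic shift, in which wild-type cells that have used up glucose turn to respiration. The groups were the double mutants coq2 ras2, cox4 ras2, coq2 rts1, cox4 rts1, coq2 tco89 and cox4 tco89, the single mutants ras2, rts1, tco89, coq2 and cox4, and the wild type (wt), which carries none of these deletions. COX4 encodes a subunit of cytochrome c oxidase and COQ2 an enzyme that makes coenzyme Q, so that coq2 and cox4 strains lack a working electron transport chain. RAS2 encodes a GTPase that activates adenylate cyclase and so protein kinase A, RTS1 one of the regulatory subunits of the phosphatase PP2A, and TCO89 a subunit of TORC1. The study names ras2, rts1 and tco89 as suppressors that keep the electron transport chain mutants from dying on starvation. Each group of strain and time had 2 libraries except cox4 rts1 at 16 h, which had 1. Libraries of 1 strain and time are technical replicates by the labels. The p-values therefore reflect the spread among technical replicates alone, and nothing in the labels says that a strain was more than 1 clone.

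Levels are given in TPM, which corrects for gene length and expresses each transcript as a share of its library, and depth is unknown. Across genes, paired libraries had r = 0.986 to 0.998, and at most 4 of the 132 genes differed by over 2-fold between libraries of a group. Each deleted gene was lower in every library of the strains that lack it than in every other library, for example RAS2 at 0.1 to 2.32 TPM in its deletion strains and 67.1 to 255 TPM elsewhere, and COX4 at 0.115 to 72.3 TPM against 283 to 3460 TPM. Because TPM is a share, a median-ratio scaling of the libraries was set beside it. Relative to that scaling the deposited scale shifted all genes by -0.29 (log2) in wt at 16 h against 0 h, and counts of members that moved by over 1.5 times or turned in direction under it are given below.

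Ribosomal protein genes were a large part of the transcripts of log-phase libraries by TPM and a far smaller one at the later times. In wt their summed TPM was 30.5% and 31.7% of the libraries at 0 h, 7.07% and 7.63% at 12 h, and 6.05% and 6.55% at 16 h. No wt library at 12 or 16 h came near the wt libraries at 0 h. Over all strains the share was 21.6% to 32.6% at 0 h, 4.89% to 14.4% at 12 h, and 4.09% to 16.0% at 16 h. The lowest shares at 0 h, 21.6% and 21.9%, were those of cox4 ras2, below every other log-phase library.

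**Figure D1:**
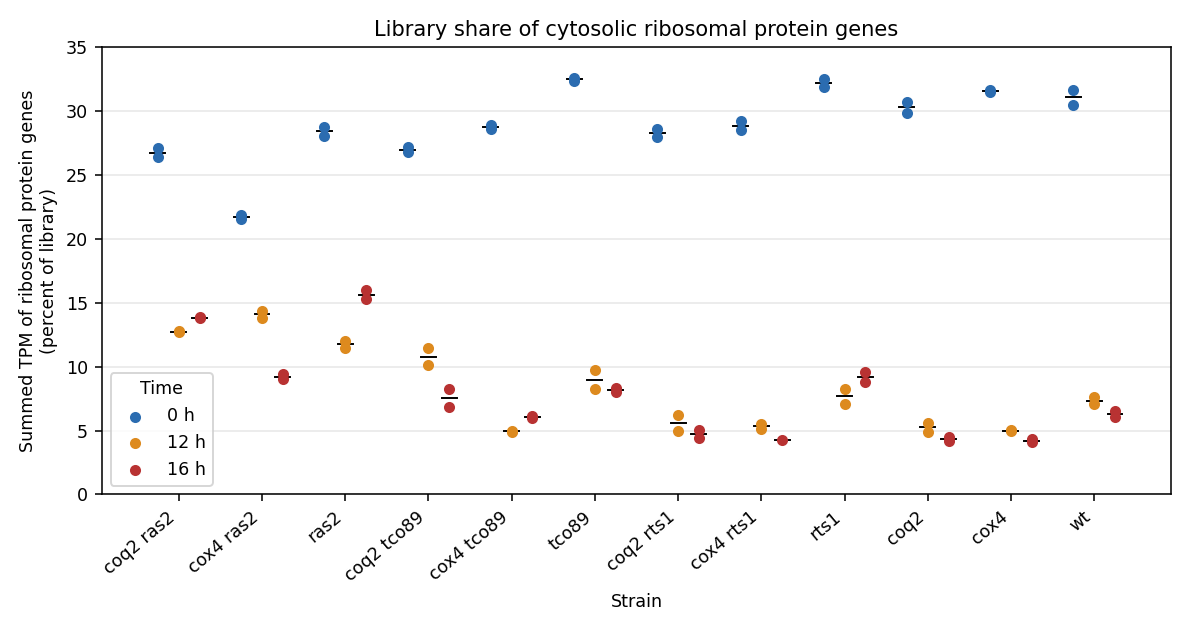
Summed TPM of the 132 ribosomal protein genes as percent of each library (vertical axis), by strain and time, with a point per library and a line at the mean. Log-phase libraries lie between 21.6% and 32.6%, and all later libraries lie below them, with the highest 16 h values, 15.3% and 16.0%, in ras2.

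At 16 h the strains fell in an order from 15.7% ± 0.498 (SD, n = 2) in ras2 to 4.20% ± 0.164 in cox4. The 3 strains without RAS2 came first, with coq2 ras2 at 13.8% ± 0.0745 and cox4 ras2 at 9.21% ± 0.261. They were followed by rts1 at 9.18% ± 0.552, tco89 at 8.17% ± 0.233, coq2 tco89 at 7.55% ± 0.956 and wt at 6.30% ± 0.350. The remaining strains, with cox4 tco89 at 6.06% ± 0.111, coq2 rts1 at 4.76% ± 0.435, coq2 at 4.33% ± 0.211 and cox4 rts1 at 4.29% (n = 1), came between wt and cox4. Neighbours whose libraries overlapped were cox4 ras2 and rts1, tco89 and coq2 tco89, wt and cox4 tco89, and the strains from coq2 rts1 down to cox4. The summed TPM of the large subunit was also set over that of the small subunit. This ratio was 1.25 to 1.32 in libraries at 0 h, 1.31 to 1.48 at 12 h and 1.19 to 1.40 at 16 h. Its mean was higher at 12 h than at 0 h in every strain, for example 1.38 against 1.25 in wt. At 16 h it was below the 0 h mean in cox4 rts1 (1.20, n = 1, against 1.28), cox4 tco89 (1.23 against 1.30) and coq2 rts1 (1.29 against 1.31). In the other strains it was above the 0 h mean. These differences were not tested.

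The wt time course was tested gene by gene, with limma on the log2(TPM + 1) scale, and a gene passed the threshold if it changed by 2-fold or more with a Benjamini-Hochberg adjusted p under 0.05. Between 0 and 16 h, 126 of the 132 genes fell and 0 rose, where 28.9% of all 5766 genes tested fell and 17.7% rose. The median log2 change of the members was -2.54, and that of all genes -0.24. By the counts and medians of genes the subunits moved alike, with 73 of 76 large-subunit genes (median -2.50) and 53 of 56 small-subunit genes (median -2.58) lower at 16 h. At 12 h against 0 h the count was also 126, where 27.7% of all genes fell. Between 12 and 16 h no member passed the threshold by limma (0.156% of all genes fell and 0.225% rose), although 36 were lower at an adjusted p under 0.05 without the fold minimum and 63 differed at an unadjusted p under 0.05. Here and below, no share of all genes was counted for adjusted p alone or for unadjusted p. None was counted under median-ratio scaling, with a library left out or with copies summed either. The shares of all genes given beside such counts are those of the 2-fold threshold on the deposited scale with all libraries. In bulk RNA, fewer cells that express a gene and less of its RNA per cell cannot be told apart.

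The genes with the highest TPM in log phase were short or single-copy ones. Of the large subunit, RPL41A and RPL41B, which encode the smallest ribosomal protein, had 6590 ± 419 and 5440 ± 260 TPM in wt at 0 h, followed by RPL39, a small protein at the exit tunnel, with 4720 ± 123 TPM. Of the small subunit, RPS31, which is made as a fusion to ubiquitin, had 6230 ± 103 TPM, RPS20 5560 ± 85.8 TPM and RPS12 4490 ± 65.5 TPM. At the other end stood minor copies of pairs: RPL15B at 104 ± 4.35 TPM, RPL22B at 357 ± 29.8 TPM and RPL7B at 455 ± 15.1 TPM, and in the small subunit RPS14B at 446 ± 21.9 TPM, RPS9A at 487 ± 12.5 TPM and RPS22B at 506 ± 11.5 TPM. RPL7B is 96.7% identical to RPL7A, so its level is uncertain.

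RPL9A, which encodes a protein near the base of the stalk of the large subunit (chrVII:227754-228329, minus strand, no intron), had the largest fall. Its wt libraries held 49.9 and 60.7 TPM at 16 h, against 1540 and 1560 TPM at 0 h. The groups were far apart, a 27.7-fold fall (log2 change -4.79, SE 0.29, limma adjusted p = 7.3e-19). RPL9A was also the gene that varied most between libraries of a group, and it had the largest fall in 11 of the 12 strains.

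RPS22A, a small-subunit gene (chrX:74910-75302, minus strand), followed with 110 and 120 TPM at 16 h, against 2770 and 2750 TPM at 0 h, a 23.9-fold fall (SE 0.19 on the log2 scale, limma adjusted p = 1.9e-24). The large-subunit gene RPL22A held 149 and 175 TPM at 16 h, against 2300 and 2460 TPM at 0 h, a 14.7-fold fall. RPS26B, whose protein lies where mRNA leaves the ribosome, held 158 and 192 TPM at 16 h, against 2100 and 2430 TPM at 0 h, a 12.9-fold fall. In all 3 the values at 12 h, such as 188 and 164 TPM for RPS22A, were already closer to those at 16 h than to those at 0 h. The remaining genes among the 8 largest falls were RPS9B (11.8-fold), RPL14A (11.7-fold, uncertain because its copies are 96.4% identical), RPL13A (11.6-fold) and RPL15A (11.5-fold), all with limma adjusted p of 8.7e-22 or lower. Each of the 8 is a member of an A and B pair.

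Of the 6 genes that did not pass the threshold, 4 encode very small proteins. RPL41A held 4020 and 4340 TPM at 16 h, against 6300 and 6890 TPM at 0 h, and RPL41B held 3190 and 3500 TPM, against 5260 and 5620 TPM. RPS30A held 2410 and 2650 TPM at 16 h, against 4160 and 4450 TPM at 0 h, and RPS30B 1210 and 1310 TPM, against 2300 and 2430 TPM. In these 4 the libraries of the times did not overlap and the log2 changes ran from -0.91 to -0.66, so the values were lower but short of 2-fold; the copies of both pairs are at least 95% identical. RPS14B held 368 and 421 TPM at 16 h, against 430 and 461 TPM at 0 h (log2 change -0.18, SE 0.08, limma adjusted p = 0.05), and RPL15B held 83.2 and 94.6 TPM, against 107 and 101 TPM (log2 change -0.22, SE 0.10, limma adjusted p = 0.045). Under median-ratio scaling the log2 changes of RPS14B and RPL15B turned to 0.11 and 0.07, with limma adjusted p of 0.33 and 0.55. RPS14B (chrX:73787-74611, plus strand) is the neighbour of RPS22A, which had the second largest fall, and the annotated genes do not overlap.

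The spread of the changes followed the length of the gene more than its level. Genes with a coding length under 300 bases had a median log2 change of -2.10, with 15 of 19 lower, and longer ones a median of -2.61, with 111 of 113 lower. Across the 132 genes, which are not independent replicates, coding length and the log2 change had a Spearman rho of -0.48, while the TPM at 0 h and the change had a rho of 0.01. Genes with and without introns had medians of -2.52 and -2.55. When the TPM of A and B copies were summed, 73 of 75 proteins were lower at 16 h, and the spread of the log2 changes was smaller, with an SD of 0.57 over proteins and 0.738 over genes.

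Sequences upstream of the start codons were searched for a Rap1-type motif, written ANCCNNACA and read on both strands of the 500 bases before the start codon. It was found in 91 of 132 genes (68.9%) and in 18.3% of the 5767 genes searched. PAC (GCGATGAG) and RRPE (AAAAATTTT), motifs common upstream of ribosome assembly genes, were found in 0.758% and 9.09% of the ribosomal protein genes and in 4.99% and 9.71% of all genes. The motif was in 56 of 76 large-subunit genes and 35 of 56 small-subunit genes. Members with and without it had median log2 changes of -2.59 and -2.45 in wt. A match is a run of letters and does not show binding. The stretches below come from the R64 genome, which is the build sacCer3, and show the contrast between the copies of RPL15, which moved very differently, and 2 genes named below for their strain response or small change. Capitals mark the matches, some of which lie on the other strand and so read as the reverse complement.
RPL15A (chrXII:202751-202870, minus strand): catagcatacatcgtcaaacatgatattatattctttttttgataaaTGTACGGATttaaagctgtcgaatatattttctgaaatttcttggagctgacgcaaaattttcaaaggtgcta
RPL15B (chrXIII:510509-510628, minus strand): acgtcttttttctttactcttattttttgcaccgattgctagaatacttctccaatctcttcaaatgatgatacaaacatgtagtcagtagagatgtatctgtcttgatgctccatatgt
RPL43B (chrX:607875-608034, plus strand): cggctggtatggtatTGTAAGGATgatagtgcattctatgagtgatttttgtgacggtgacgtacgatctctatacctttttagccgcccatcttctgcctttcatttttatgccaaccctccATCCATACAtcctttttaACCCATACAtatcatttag
RPS30A (chrXII:713359-713498, minus strand): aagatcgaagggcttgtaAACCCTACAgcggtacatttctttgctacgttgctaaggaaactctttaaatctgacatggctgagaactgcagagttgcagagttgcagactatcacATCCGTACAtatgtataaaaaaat
The stretches of RPL15A and RPL15B are the same distance from their start codons, 280 to 161 bases before, and the one of RPL15B holds no match.

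The A and B copies of a protein did not always change alike. For each pair the log2 ratio of the A over the B copy was tested against 0 h across 256 pairs of similar genes of the whole genome, of which 57 are ribosomal. In wt the ratio changed by at least 1.5-fold in 21 of the 57 pairs, 9 toward the A copy and 12 toward the B copy, while 62.1% of all 256 pairs and 138 of the 199 pairs outside the ribosome (69.3%) changed. The median size of the change was 0.42 (log2) in ribosomal pairs and 1.45 in the others. Averaged over the 12 strains, 15 ribosomal pairs changed, against 62.5% of all pairs.

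**Figure D2:**
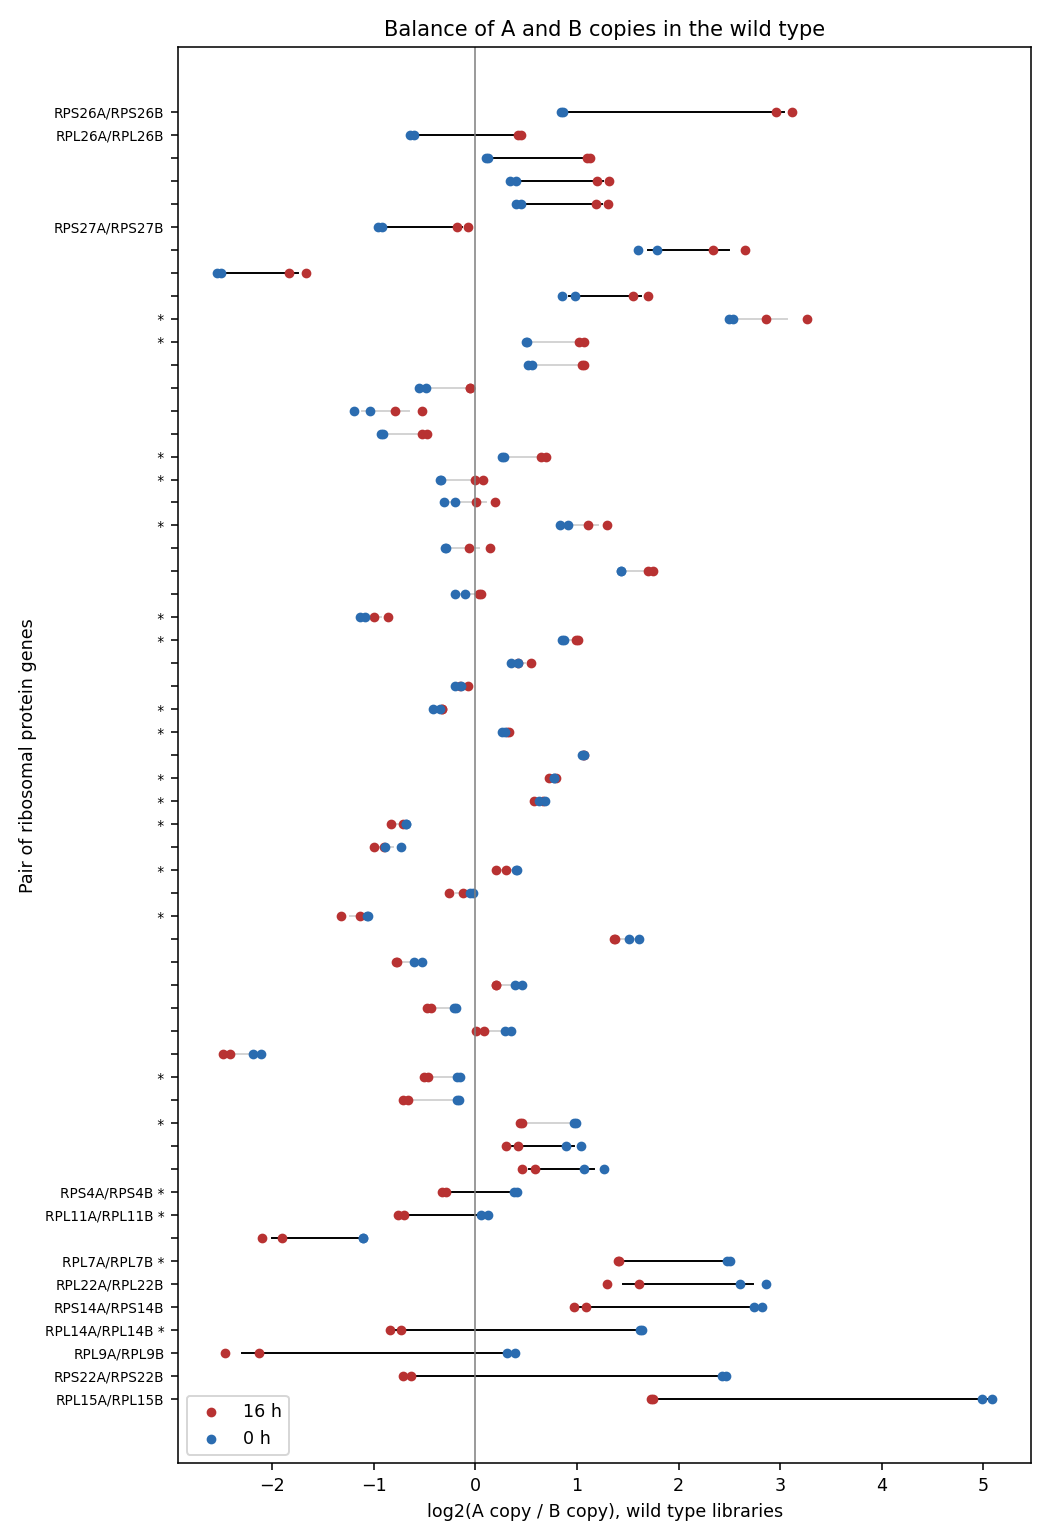
log2 ratio of the A over the B copy (horizontal axis) for the 57 pairs in wt, with a red point per 16 h library, a blue point per 0 h library and a line between the means, black where the change was called. Pairs run from the largest shift toward A (RPS26A/RPS26B, 2.19) to the largest toward B (RPL15A/RPL15B, -3.30), an asterisk marks copies at least 95% identical, and pairs described in the text are named.

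The RPL15 pair moved most. RPL15A supplied 97.1% of the summed TPM in wt at 0 h, 81.4% at 12 h and 77.1% at 16 h, since it fell while its minor copy kept most of its level. The log2 ratio was 1.75 and 1.73 in the libraries at 16 h, against 4.99 and 5.09 at 0 h, a change of -3.30 (SE 0.17, limma adjusted p = 6.1e-21 over pairs). Over all strains the ratio ranged from 1.47 to 3.80 at 16 h and from 4.21 to 5.23 at 0 h, so no library at 16 h reached the log-phase range. The copies differ at 42 of their 615 coding bases, where reads can be told apart. The 60 bases below are the stretch with the most differences, and capitals mark the 10 positions that differ.
RPL15A (chrXII:201977-202036, minus strand): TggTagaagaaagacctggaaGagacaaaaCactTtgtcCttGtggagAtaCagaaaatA
RPL15B (chrXIII:509735-509794, minus strand): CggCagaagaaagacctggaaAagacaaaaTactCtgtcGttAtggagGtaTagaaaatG

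In the RPS22 and RPL9 pairs the larger share passed to the other copy. RPS22A supplied 84.5% of the summed TPM at 0 h, 42.5% at 12 h and 38.5% at 16 h in wt. Its log2 ratio to RPS22B was -0.72 and -0.64 at 16 h, against 2.43 and 2.47 at 0 h, a change of -3.12 (SE 0.20, limma adjusted p = 3.2e-18). RPL9A supplied 56.0% at 0 h, 15.3% at 12 h and 16.8% at 16 h, a log2 change of the ratio of -2.64 (SE 0.25, limma adjusted p = 7.7e-13). RPS22B and RPL9B themselves fell by 2.74-fold and 4.43-fold in wt. In all 12 strains the A copy of both pairs lost share between 0 and 16 h. The RPS22 copies differ at 25 of the last 260 coding bases and the RPL9 copies at 36 of 576. The stretches below are again those with the most differences, with 8 positions in the RPS22 pair and 10 in the RPL9 pair in capitals.
RPS22A (chrX:74955-75014, minus strand): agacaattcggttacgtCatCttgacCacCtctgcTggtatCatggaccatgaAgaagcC
RPS22B (chrXII:857213-857272, plus strand): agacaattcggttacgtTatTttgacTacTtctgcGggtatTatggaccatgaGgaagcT
RPL9A (chrVII:227757-227816, minus strand): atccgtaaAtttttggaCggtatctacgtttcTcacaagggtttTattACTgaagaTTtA
RPL9B (chrXIV:500194-500253, plus strand): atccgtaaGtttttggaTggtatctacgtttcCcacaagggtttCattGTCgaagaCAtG

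RPS26 moved the other way. RPS26A supplied 64.3% of the pair at 0 h, 89.0% at 12 h and 89.1% at 16 h, with log2 ratios of 3.12 and 2.95 at 16 h, against 0.86 and 0.84 at 0 h (change 2.19, SE 0.17, limma adjusted p = 3.6e-15). It gained share in all 12 strains. The other pairs among the 8 largest shifts were RPL14 (-2.42) and RPL7 (-1.08), whose copies are at least 95% identical and whose split is uncertain, and RPS14 (-1.75) and RPL22 (-1.28). RPS14A supplied 87.3% of its pair at 0 h, 69.8% at 12 h and 67.2% at 16 h, and RPL22A 86.9%, 68.6% and 73.5%. The larger copy changed in 10 of the 57 wt pairs, of which 6 were called: RPL9, RPL11, RPL14, RPL26, RPS4 and RPS22. Of these, the copies of RPL11, RPL14 and RPS4 are at least 95% identical, so that their switch is uncertain. The log2 ratios of all 16 h libraries of all strains lay outside the range of all 0 h libraries in 12 ribosomal pairs, where 31.6% of all pairs did so.

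**Figure D3:**
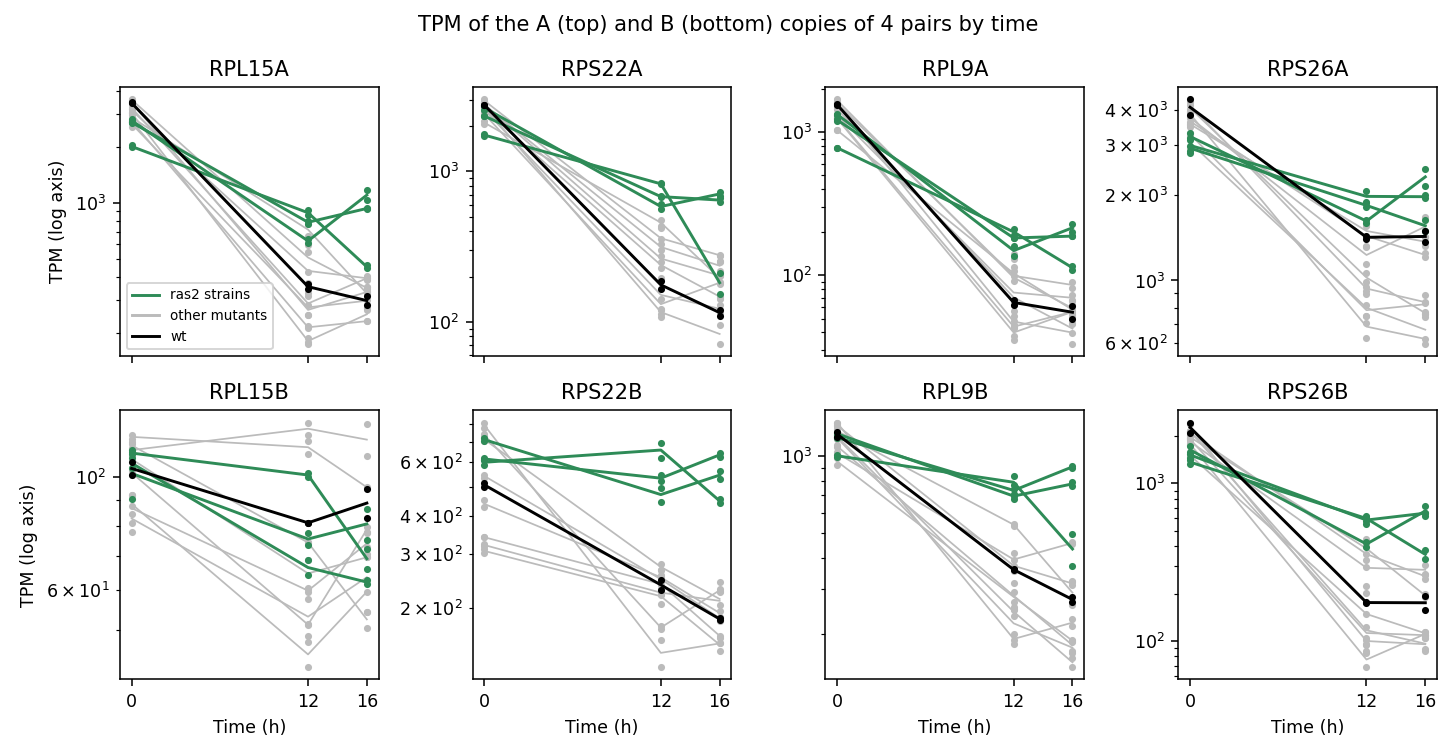
TPM (log axis) of the A copies (top row) and B copies (bottom row) of RPL15, RPS22, RPL9 and RPS26 at 0, 12 and 16 h, with points for libraries and lines through strain means (green, ras2 strains; grey, other mutants; black, wt). RPL15A, RPS22A, RPL9A and RPS26B drop steeply in wt, to 299, 115, 55.3 and 175 TPM at 16 h, while RPL15B stays between 81.3 and 107 TPM in the wt libraries.

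At 0 h the copies were already unequal. In wt the A copy was higher in 34 of the 57 pairs and the B copy in 23, and 10 pairs differed by over 3-fold. The 5 largest log2 ratios were those of RPL15 (5.04), RPS14 (2.78), RPL22 (2.73), RPS9 (-2.52) and RPL18 (2.52), the last of which is at least 95% identical between copies. RPL1A and RPL1B are an example of a pair whose reads can hardly be divided, with 4 differences in 654 coding bases. Their first 60 coding bases, again the stretch with the most differences, differ at 2 positions.
RPL1A (chrXVI:135790-135849, plus strand): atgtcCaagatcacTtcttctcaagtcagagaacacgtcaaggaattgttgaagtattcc
RPL1B (chrVII:254641-254700, plus strand): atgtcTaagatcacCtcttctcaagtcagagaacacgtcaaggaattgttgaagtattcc

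Ribosomal protein genes were lower at 16 h in all mutants, but to different extents. Between 0 and 16 h, 130 of 132 genes fell in coq2 (38.8% of all genes fell), 130 in cox4 (36.5%), 122 in rts1 (20%) and 127 in tco89 (23.2%). In the double mutants 128 fell in coq2 rts1 (30.1% of all genes), 130 in cox4 rts1 (28.9%), 125 in coq2 tco89 (26.7%) and 126 in cox4 tco89 (45.5%). The strains without RAS2 had fewer, with 49 in ras2 (18.6%), 69 in coq2 ras2 (23.3%) and 102 in cox4 ras2 (31.4%). Under median-ratio scaling, which shifted these comparisons by -0.23, -0.33 and -0.41, the counts were 25 in ras2, 24 in coq2 ras2 and 67 in cox4 ras2. In the other mutants they were 111 to 129. The share of all genes that fell was not counted under that scaling, so these counts have no background beside them. None of the 132 rose in any strain by this comparison, where 10.5% to 20.4% of all genes rose, and 44 fell in all 12 strains, among them RPL9A, RPS22A, RPL15A and RPS26B. The share of all genes that fell in all 12 strains was not counted. It can be at most 18.6%, the share in ras2. At the other end RPL15B fell in 1 strain, RPS14B in 2, RPS30A and RPS30B in 3, RPL41A in 4 and RPL41B in 5.

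At 12 h the falls in the ras2 strains and in coq2 tco89 were not those of 16 h. At 12 h against 0 h, 113 genes had fallen in ras2 (23.6% of all genes, median log2 change -1.36), 89 in coq2 ras2 (23%, -1.16), 24 in cox4 ras2 (18.1%, -0.71) and 117 in coq2 tco89 (17%, -1.39). The median of ras2 was thus further from 0 at 12 h than at 16 h, and that of cox4 ras2 closer to 0. These changes share the 0 h libraries, and the difference between the times is given below.

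**Figure D4:**
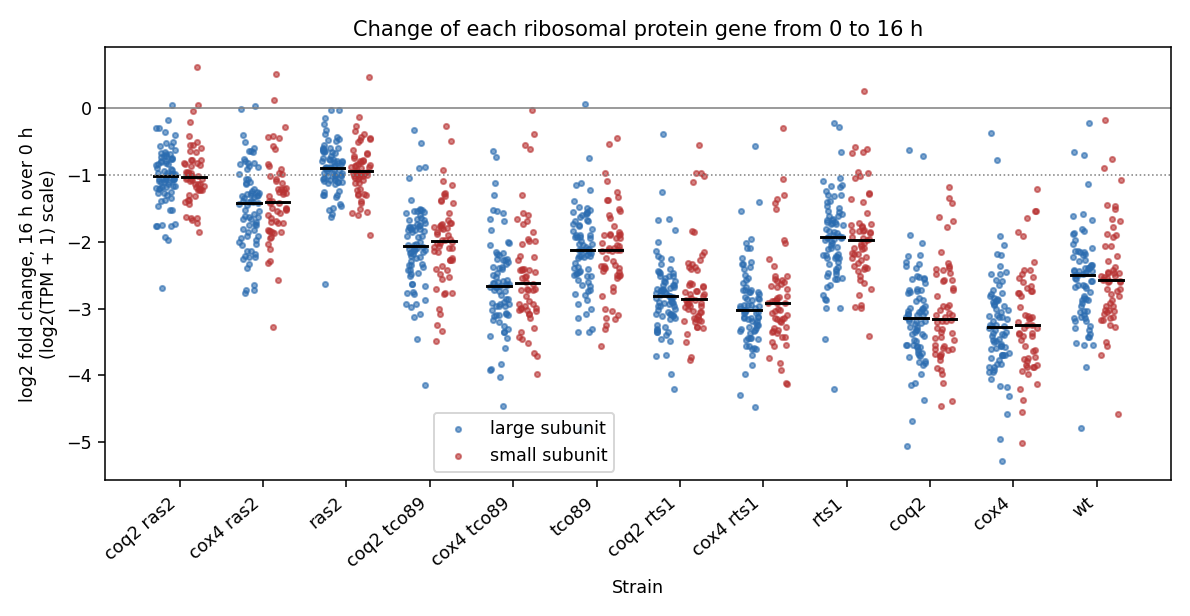
log2 fold change from 0 to 16 h, 16 h over 0 h (vertical axis), of each ribosomal protein gene in each strain, with large-subunit genes in blue, small-subunit genes in red and black lines at the medians. The dotted line marks a 2-fold fall. Medians run from -0.91 in ras2 to -3.26 in cox4, and the subunits have nearly the same median in every strain.

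The difference of each mutant from wt in this change was tested with an interaction term. The ras2 strain fell less than wt in 121 of 132 genes (10.3% of all genes were higher by this test), with a median difference of 1.65 (log2), and coq2 ras2 in 114 (8.38%) and cox4 ras2 in 81 (8.1%). In coq2, 15 genes fell more than in wt and 1 fell less, where 12.2% of all genes were lower and 1.91% higher by the test. In cox4, 26 fell more (10.3% of all genes). The counts for the other mutants were small, with 7 higher in rts1 (8.69%), 2 higher in tco89 (5.62%), 2 higher in coq2 tco89 (3.19%), 1 lower in coq2 rts1 (6.54%), 5 lower in cox4 rts1 (7.34%) and none in cox4 tco89 (2.55% higher and 19.4% lower over all genes). In cox4 tco89, 15 were higher and 24 lower at an adjusted p under 0.05 by limma without the fold minimum, and 46 differed at an unadjusted p under 0.05.

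In 5 mutants the interaction counts moved with the scaling. Under median-ratio scaling coq2 had 3 genes that fell less and 1 that fell more, the reverse of the deposited scale (shift -0.40), and cox4 had 1 that fell less and 7 that fell more (shift -0.27). The rts1 count was 2 (shift 0.26), tco89 had none that fell less and 1 that fell more (shift 0.12), and cox4 tco89 had 11 that fell less (shift -0.62). In ras2, coq2 ras2 and cox4 ras2 the counts were 117, 115 and 94, all of genes that fell less than in wt.

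In log phase the electron transport chain mutants had ribosomal protein levels near those of wt, and at 16 h they were somewhat lower. None of the 132 genes passed the threshold against wt at 0 h in coq2 (0.121% of all genes higher, 0.156% lower) or in cox4 (0.26% and 0.572%). None reached an adjusted p under 0.05 by limma, and 1 in each strain had an unadjusted p under 0.05. At 12 h, 1 gene was lower in coq2 (RPS9A, 4.37% of all genes) and 2 in cox4 (RPS9A and RPS25B, 2.43%). The coq2 count was 14 without the first coq2 library and 0 without the second, and the cox4 count was 5 without the second wt library, 4 without the first cox4 library and 1 without the second. Both counts were 0 under median-ratio scaling. At 16 h, none were higher and 22 genes were lower in coq2 (1.35% and 12.3% of all genes), and 107 were lower and 5 higher by adjusted p alone in limma. In cox4 none were higher and 21 were lower (1.99% and 9.52% of all genes), and 115 were lower and 5 higher by adjusted p alone. These shares are not far from the background, and the medians were -0.64 in coq2 and -0.68 in cox4, beside -0.39 and -0.31 for all genes. Under median-ratio scaling, which shifted these comparisons by -0.44 and -0.33, coq2 had 3 genes higher and 1 lower and cox4 1 higher and 2 lower. The coq2 count at 16 h was 13 without the second wt library and 30 without the first coq2 library.

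RPL41B was the most reduced in both mutants. It held 1250 and 1190 TPM in coq2 at 16 h, against 3190 and 3500 TPM in wt (2.74-fold lower, limma adjusted p = 4.4e-13), and 1260 and 1310 TPM in cox4 (2.60-fold lower than wt, limma adjusted p = 2.6e-12). RPS25B held 154 and 139 TPM in coq2 and 158 and 161 TPM in cox4, against 370 and 408 TPM in wt. Neither mutant overlapped with wt for these genes. RPS9A (2.40-fold) and RPS7B (2.36-fold) in coq2, and RPL18B (2.51-fold) and RPL37A (2.44-fold) in cox4, were the others among the 4 largest. The copies of RPL41 and of RPL18 are at least 95% identical. The 2 mutants shared 16 of the members lower than in wt at 16 h, 72.7% of those of coq2 and 76.2% of those of cox4. Both were compared with the same wt libraries, and the overlap over all genes was not counted. RPL41B also fell 2.16-fold in coq2 between 12 and 16 h, the only member past the threshold there (2.06% of all genes fell).

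The ras2 strain held ribosomal protein transcripts at a higher level than wt at the late times. At 0 h none of the 132 genes passed the threshold (3.59% of all genes higher, 1.25% lower), although 38 were lower and 3 higher at an adjusted p under 0.05 by limma without the fold minimum and 55 differed at an unadjusted p under 0.05. At 12 h, 42 genes were higher (5.01% of all genes) and at 16 h 112 (7.37%), 65 of the large and 47 of the small subunit, with a median log2 difference of 1.53. Between 12 and 16 h, 106 of 132 genes in ras2 were higher at an adjusted p under 0.05, with a median of 0.43, and none reached 2-fold (3.94% of all genes rose). At 12 h the count was 70 under median-ratio scaling, which shifted that comparison by -0.21.

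RPS22A had the largest difference at both times. It held 732 and 685 TPM in ras2 at 16 h, against 110 and 120 TPM in wt, 6.12-fold higher (log2 2.61, SE 0.19, limma adjusted p = 2.7e-15). RPL43B held 1140 and 1120 TPM in ras2, against 219 and 244 TPM in wt (4.88-fold, limma adjusted p = 6.9e-20). RPL22B held 299 and 327 TPM in ras2, against 60.1 and 56.6 TPM in wt (5.29-fold, limma adjusted p = 4e-22). RPL26B was 4.83-fold higher, and none of the 4 genes had libraries of the strains that overlapped. At 12 h the 4 largest were RPS22A (3.31-fold), RPL2B and RPL16B (3.20-fold each) and RPL14A (3.04-fold), of which RPL2B and RPL14A are uncertain for their near-identical copies.

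At 12 and 16 h the electron transport chain mutants without RAS2 also had higher values than those with it. At 0 h coq2 ras2 had no gene past the threshold against coq2 (3.49% of all genes higher, 0.572% lower), with 38 lower and 2 higher by adjusted p alone in limma and 62 at an unadjusted p under 0.05. Against coq2, coq2 ras2 had 116 genes higher at 12 h (13.8% of all genes) and 125 at 16 h (19.1%), with median differences of 1.47 and 1.92 on the log2 scale. Against cox4, cox4 ras2 had 120 higher at 12 h (8.45% of all genes) and 96 at 16 h (10.8%), with medians of 1.68 and 1.27. At 0 h only RPL9A passed in cox4 ras2, at 775 and 778 TPM, against 1600 and 1520 TPM in cox4. It was 2.01-fold lower (limma adjusted p = 0.0043), and 3.99% of all genes were lower. That call was lost without the first cox4 library and under median-ratio scaling. By adjusted p alone 127 members were lower, where no share of all genes was counted. The median of the 132 was -0.57, beside -0.08 for all genes.

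RPL43B was the leading gene of both at 16 h. It held 1110 and 1090 TPM in coq2 ras2, against 126 and 105 TPM in coq2 (9.50-fold, limma adjusted p = 6.8e-25), and 494 and 615 TPM in cox4 ras2, against 127 and 105 TPM in cox4 (4.74-fold). RPL4B, near-identical to RPL4A, was 7.83-fold higher in coq2 ras2 and 4.31-fold in cox4 ras2. RPS9A and RPS26B were 6.78-fold and 6.68-fold higher in coq2 ras2, and RPL24A and RPL18B 4.71-fold and 3.97-fold higher in cox4 ras2. At 12 h the leading genes were RPS18B, RPS26B, RPS9A and RPL18B in coq2 ras2 (4.96-fold to 5.15-fold) and RPS22A, RPL14A, RPS26B and RPS13 in cox4 ras2 (5.70-fold to 7.11-fold).

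The cox4 ras2 strain alone of the 3 strains without RAS2 had members past the threshold between 12 and 16 h. There 38 of its genes fell (12.3% of all genes), with a median of -0.74, and none fell in ras2 (1.8% of all genes) or in coq2 ras2 (4.63%; 5.79% of all genes rose). By adjusted p alone in limma, 106 members were higher and 0 lower at 16 h in ras2, and 32 were higher and 9 lower in coq2 ras2, with 116 and 44 at an unadjusted p under 0.05. RPS22A held 154 and 210 TPM in cox4 ras2 at 16 h, against 821 and 833 TPM at 12 h, 4.57-fold lower (limma adjusted p = 3.2e-13). RPL14A fell 3.40-fold, RPL16B 3.13-fold and RPL22A 2.98-fold in the same interval. The difference between these strains in the change from 12 to 16 h was not tested.

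The tco89 strain had few members past the threshold against wt. The coq2 tco89 strain had many against coq2, and far fewer under median-ratio scaling. In tco89 none of the 132 genes passed at 0 h (0.538% of all genes higher, 1.08% lower), 8 being higher at adjusted p alone by limma and 15 differing at an unadjusted p under 0.05. RPL8B was higher at 12 h (1 gene, 7.08% of all genes), and 2 genes, RPS22A among them, at 16 h (5.6%). These are 0.758% and 1.52% of the members, smaller shares than those of all genes. Without the first tco89 library the count at 12 h was 13, without the first wt library it was 4, and the count at 16 h was 4 without the second wt library and 1 without the first wt or the second tco89 library. Under median-ratio scaling, which shifted these comparisons by 0.15 and 0.16, the counts were 0 at 12 h and 1 at 16 h. RPS22A held 217 and 255 TPM in tco89 at 16 h, against 110 and 120 TPM in wt, 2.04-fold higher (limma adjusted p = 1.9e-05). RPL8B is at least 95% identical to its other copy. Of all 132 genes 119 had a positive value against wt at 16 h, with a median of 0.45 beside 0.17 for all genes.

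In coq2 tco89, 98 genes were higher than in coq2 at 12 h (21.2% of all genes) and 56 at 16 h (16.4%), with none past the threshold at 0 h (0.728% higher, 0.295% lower; 1 higher and 8 lower by adjusted p alone in limma, 50 at an unadjusted p under 0.05). Under median-ratio scaling, which shifted these comparisons by 0.46 and 0.48, the counts were 36 higher at 12 h and 11 higher with 1 lower at 16 h. RPL16A held 248 and 342 TPM in coq2 tco89 at 16 h, against 83.6 and 68.8 TPM in coq2 (3.81-fold), and RPL41B 3360 and 5640 TPM, against 1250 and 1190 TPM (3.57-fold). RPL33B (3.28-fold) and RPS25B (3.09-fold) followed, and at 12 h RPS18B, RPL18B, RPL8B and RPS9A led (3.65-fold to 4.02-fold). Between 12 and 16 h, 9 genes fell in coq2 tco89 (3.87% of all genes), led by RPS9A with 42.9 and 48.6 TPM at 16 h, against 119 and 116 TPM at 12 h.

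The cox4 tco89 strain had no gene past the threshold against cox4 at 0 h (0.78% of all genes higher, 0.382% lower) or at 12 h (2.71% and 4.23%), with 28 and 62 genes at adjusted p alone by limma and 53 and 72 at an unadjusted p under 0.05. At 16 h 10 were higher (3.24% of all genes), and 35 were so under median-ratio scaling, which shifted that comparison by -0.26. RPS30B held 2230 and 2930 TPM in cox4 tco89 at 16 h, against 687 and 742 TPM in cox4 (3.58-fold, limma adjusted p = 4.5e-15), and RPL16A 223 and 239 TPM, against 72.7 and 66.0 TPM (3.30-fold). The ubiquitin fusion gene RPL40B was also among them (2.43-fold). Between 12 and 16 h, 3 genes rose in cox4 tco89 (4.13% of all genes): RPS27A to 869 and 820 TPM at 16 h, against 346 and 336 TPM at 12 h, and the near-identical RPS30A and RPS30B by 2.09-fold and 2.11-fold.

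RPS27A was also the single member that rose between 12 and 16 h in coq2 rts1 (13.3% of all genes rose) and in cox4 rts1 (18.5%). It held 426 and 625 TPM in coq2 rts1 at 16 h, against 190 and 252 TPM at 12 h (2.35-fold, limma adjusted p = 4.1e-13), and 493 TPM in the 1 cox4 rts1 library at 16 h, against 205 and 185 TPM at 12 h (2.52-fold). In cox4 rts1 3 genes, among them RPS7A and the near-identical copy RPS6B, fell in the same interval (6.26% of all genes), by 2.00-fold to 2.48-fold.

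A few members passed the threshold in each of the 3 strains without RTS1, compared with the strain that carries it. At 16 h the members were higher in rts1 than in wt by a median of 0.57 (log2), beside 0.13 for all genes, with 127 of 132 positive and 107 higher at an adjusted p under 0.05 by limma. The medians of coq2 rts1 against coq2 and of cox4 rts1 against cox4 at 16 h were 0.16 and 0.08, beside 0.20 and 0.15 for all genes, and turned to -0.04 and -0.08 under median-ratio scaling. RPS9A, whose protein is among the early binders of small-subunit RNA, was the single member past the threshold at 0 h in each comparison. It made up 0.758% of the members, a smaller share than that of all genes. It held 174 and 177 TPM in rts1, against 478 and 495 TPM in wt, 2.76-fold lower (limma adjusted p = 8e-08; 1.28% of all genes were lower). It held 159 and 182 TPM in coq2 rts1, against 506 and 507 TPM in coq2 (2.97-fold lower; 1.51% of all genes), and 183 and 196 TPM in cox4 rts1, against 539 and 557 TPM in cox4 (2.88-fold lower; 1.28% of all genes). The 6 libraries without RTS1 all lay under 200 TPM, and over the other 9 strains RPS9A ran from 298 to 557 TPM at 0 h. Its other copy RPS9B, the major one, held 2460 and 2530 TPM in rts1, against 2790 and 2810 TPM in wt. With A and B copies summed no protein passed at 0 h in any of these 3 comparisons, and under median-ratio scaling rts1 had 1 gene higher and 1 lower at 0 h.

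**Figure D5:**
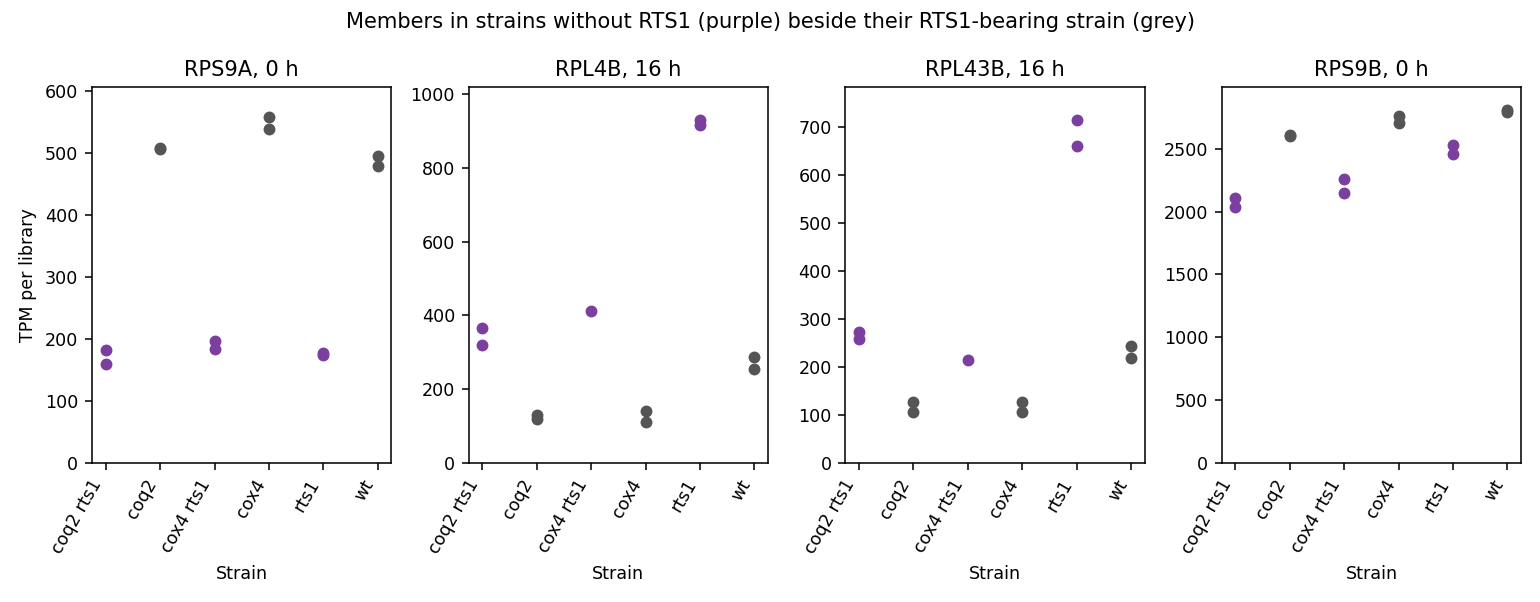
TPM per library (vertical axis, from 0) of RPS9A at 0 h, RPL4B and RPL43B at 16 h and RPS9B at 0 h. Strains lacking RTS1 are in purple. Each stands left of the strain in grey whose name differs from it by rts1 alone. RPS9A lies at 159 to 196 TPM without RTS1 and at 478 to 557 TPM with it, and RPL4B lies higher without RTS1 in each of the 3 pairs of strains.

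At the later times RPL4B, which encodes a large-subunit protein that lines the exit tunnel, was higher without RTS1 in all 3 comparisons. At 16 h it held 929 and 917 TPM in rts1, against 286 and 255 TPM in wt (3.41-fold, limma adjusted p = 5.2e-17). It held 366 and 320 TPM in coq2 rts1, against 129 and 119 TPM in coq2 (2.75-fold), and 412 TPM in the cox4 rts1 library, against 140 and 110 TPM in cox4 (3.30-fold). RPL4B and RPL4A are over 95% identical, and RPL4A was also higher in rts1 than in wt (2.47-fold), as was RPL43B (2.97-fold).

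Members higher at 12 and 16 h numbered 5 and 14 in rts1 against wt (3.9% and 6.56% of all genes), 3 and 2 in coq2 rts1 against coq2 (7.01% and 10.8%), and 5 and 5 in cox4 rts1 against cox4 (4.79% and 11.3%), where 14 of 132 is a larger share than that of all genes and the counts of the double mutants at 16 h are smaller shares. At 12 h RPL4B, RPL2B and RPL16B passed in each of the 3 comparisons, by 2.16-fold to 2.68-fold. Of the 5 members higher in cox4 rts1 at 16 h, RPS27B held 1170 TPM in that library, against 574 and 524 TPM in cox4. Under median-ratio scaling the 12 h counts were 13 in rts1, which was shifted by -0.37, and 16 in cox4 rts1, shifted by -0.38, and the 16 h count was 1 in each of coq2 rts1 and cox4 rts1 (shifts of 0.20 and 0.15). The 12 h count was 8 without the first and 3 without the second rts1 library in rts1, and 12 without the first coq2 and 10 without the first coq2 rts1 library in coq2 rts1. The 16 h count in cox4 rts1 was 9 without the first and 3 without the second cox4 library.

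Strains also differed in the balance of copies at 16 h. Against wt, ratios changed in 20 of 57 pairs in ras2 (43.8% of all pairs), 18 in coq2 ras2 (44.9%), 21 in cox4 ras2 (42.6%), 16 in coq2 (33.2%), 13 in cox4 (35.2%), 12 in rts1 (37.1%), 11 in tco89 (35.2%), 17 in coq2 rts1 (39.5%), 15 in cox4 rts1 (37.9%), 7 in coq2 tco89 (34.4%) and 9 in cox4 tco89 (39.8%). In each strain the share of ribosomal pairs was below that of all pairs. The RPL26 and RPS27 pairs shifted toward the B copy in 8 of the 11 mutants each, more than any other ribosomal pair, and 15 ribosomal pairs shifted in none. For pairs outside the ribosome the number of mutants was not counted. All 11 comparisons share the wt libraries at 16 h. In wt the log2 ratio of RPL26 had itself moved toward the A copy, from -0.62 at 0 h to 0.44 at 16 h. RPL26A supplied 57.6% of its pair in wt at 16 h, and RPS27A 47.8%. In ras2 at 16 h RPS27A held 632 and 670 TPM and RPS27B 2590 and 2410 TPM. In wt RPS27B was already the larger copy, with 787 and 782 TPM, against 693 and 744 TPM of RPS27A. The RPL15 ratio was higher in ras2 than in wt at 16 h by 2.01 (log2, limma adjusted p = 3.1e-13), RPL15A being nearer its log-phase level there.

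Other genes of the ribosome and of its control, from lists that the study did not supply, changed with the members in wt. All 5 genes of the ribosomal stalk fell between 0 and 16 h, with a median of -3.03. Of 18 genes listed for proteins bound to ribosomes 15 fell, led by SSB1 (11.2-fold), a chaperone of nascent chains, and ASC1 (10.1-fold), the homologue of mammalian RACK1. Next came SNU13 (6.82-fold), which the list holds although its protein acts in ribosomal RNA processing and the spliceosome. Of 25 measured assembly factors and dedicated chaperones 16 fell, led by RRB1 (7.11-fold), the chaperone of Rpl3, MAK16 (6.76-fold) and ARX1 (6.36-fold). Of 53 ribosome biogenesis genes named UTP, NOP or RRP 38 fell (median -1.69), led by NOP1 (34-fold), the methyltransferase of box C/D particles, NOP58 (15.3-fold) and NOP56 (13.5-fold). In this comparison 28.9% of all genes fell and 17.7% rose, with a median of -0.24. Of the 75 genes taken by symbol alone as those of the mitochondrial ribosome none fell and 11 rose, with a median of 0.46. This is a smaller share than over all genes. The place of each gene in that ribosome was not checked.

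Among the regulators, DOT6, a repressor of ribosome biogenesis genes, rose 6.84-fold, with 589 and 536 TPM at 16 h, against 77.4 and 85.4 TPM at 0 h. KNS1 (3.77-fold) and YAK1 (3.74-fold), kinases that act below TORC1 and protein kinase A, also rose. In all 6 of the 14 kinases and repressors listed rose, and CKA1 alone fell (2.54-fold), where 17.7% of all genes rose and 28.9% fell. Of 15 transcription factors and cofactors CRF1, a corepressor of ribosomal protein genes, rose 5.76-fold, and 4 fell: ABF1 (3.73-fold), TBF1 (3.19-fold), REB1 (3.18-fold) and GCN5 (2.19-fold). The share of these factors that fell is near that of all genes. The polyubiquitin gene UBI4 rose 2.98-fold, to 673 and 678 TPM at 16 h, against 228 and 225 TPM at 0 h, while RPS31 and the RPL40 copies, the ubiquitin fusions to ribosomal proteins, fell.

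At 16 h the same lists were set between ras2 and wt, where 7.37% of all genes were higher in ras2 and 7.75% lower. All 5 stalk genes were higher in ras2 (median 1.61), as were 7 of the 18 genes listed as ribosome-bound and 17 of 53 biogenesis genes (median 0.62). Of the 75 genes listed for the mitochondrial ribosome 15 were lower (median -0.66). In coq2 against wt, 45 of the 75 mitochondrial genes were lower (median -1.10), where 12.3% of all genes were lower, beside 22 of the 132 cytosolic ones (median -0.64). The difference between these lists was not tested.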

How the data were processed

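Per the labels' protocols, total RNA was made into stranded poly(A) libraries with rRNA removal and sequenced on a HiSeq 4000. The submitters' processing notes name bcl2fastq 2.20.0.422, Salmon 0.9.1 and sacCer3; the sources used here do not state their settings. The authors deposited TPM, in 2 identical tables of which 1 was used; libraries sum to 1000003 to 1000010, with a floor of 0.1 TPM. No counts were used, so no counting interval is given and the number of libraries limits precision. The columns name the strain and a number but no replicate; the number was read as the time from the sample descriptions, in which it runs with time. First and second library are the order of the columns.

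Members were the symbols RPL or RPS with a number and at most A or B. Members and gene lists were chosen with earlier results of these data known. Of 5803 genes, 5766 had at least 1 TPM in at least 2 libraries, and 37 were removed. limma 3.58.1 (R 4.3.3) was fitted to log2(TPM + 1) with 36 group means over 71 libraries (35 residual degrees of freedom, intensity trend, Benjamini-Hochberg adjustment within each of 80 comparisons). The lone cox4 rts1 library at 16 h was assumed to vary like the other groups. Fold changes are on the log2(TPM + 1) scale. The fit was tested on simulated data.

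Pairs were reciprocal best blastn 2.17.0 matches of coding sequences (at least 30% identity over 70%; no protein table was used here), 256 of 263 found being tested. Sequences come from R64 with RefSeq annotation, to which 5786 IDs and all 132 members matched. Tables and figures used python 3.11.15, pandas 2.3.3, numpy 2.4.6 and matplotlib 3.10.9.

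Named are the 8 largest falls and 5 smallest changes in wt, the 3 highest and 3 lowest levels per subunit, up to 4 members per direction in other comparisons, the 8 largest ratio changes, the 5 largest ratios, and up to 3 genes per direction per list. Genes shown for a single contrast outside this rule, such as RPL41A, the RPS30 copies, RPS9B in rts1, RPS27B and RPS14B as a neighbour, were chosen after their values were seen. Some members that the rule would name are not reported here. Alternatives were median-ratio scaling, pseudocounts of 0.1 and 5, no filter, no fold minimum, groups fitted alone, summed copies, pairs under 95% identity, a ratio minimum of 2, and leaving out each library.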

Additional observations from a re-analysis of the deposited data

Results flagged for a closer look

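The change between 0 and 16 h was compared with that of wt by the interaction term of the limma fit, on the deposited scale. At least 1 ribosomal protein gene passed the threshold in 10 of the 11 mutants. The number of genes past the threshold was 121 in ras2, 114 in coq2 ras2 and 81 in cox4 ras2, all of which fell less than in wt. It was 26 in cox4, all of which fell more, and 16 in coq2, of which 15 fell more and 1 fell less. It was 7 in rts1, 2 in tco89 and 2 in coq2 tco89, all of which fell less, and 5 in cox4 rts1 and 1 in coq2 rts1, which fell more. Beside the shares of all genes given above for the same test, only cox4 and the strains without RAS2 had a larger share of members. In coq2, rts1, tco89, coq2 tco89, cox4 rts1 and coq2 rts1 the share of members was below that of all genes. Under median-ratio scaling the balance in coq2 turned to 3 that fell less and 1 that fell more, tco89 had 1 that fell more and none that fell less, cox4 had 7 that fell more and 1 that fell less, rts1 had 2 and cox4 tco89, with none on the deposited scale, had 11 that fell less. All of these comparisons share the wt libraries. No group had the 4 libraries needed to look for a library apart from the rest.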

How the results depend on the processing

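Of the alternatives, pseudocount 0.1, no filter, groups fitted alone and pairs under 95% identity turned no direction and moved no count by over 1.5 times; the cause of the changes below was not tested. No paired analysis was possible because the columns carry no replicate numbers. With A and B copies summed, the proteins past the threshold numbered 0 in coq2 at 12 h and 1 at 16 h, 0 and 2 in cox4, 0, 1 and 3 in rts1 at 0, 12 and 16 h, and 0 in tco89 at 12 and 16 h, each against wt. Against the electron transport chain mutant they numbered 0, 1 and 0 in coq2 rts1, 0 in cox4 ras2 and cox4 rts1 at 0 h, 1 in cox4 rts1 at 16 h and 3 in cox4 tco89 at 16 h. Under median-ratio scaling the counts against wt were 0 and 4 in coq2 at 12 and 16 h (3 of the 4 higher, the reverse of the deposited scale), 0 and 3 in cox4, 70 in ras2 at 12 h, 2 and 13 in rts1 at 0 and 12 h, and 0 and 1 in tco89 at 12 and 16 h. Against the electron transport chain mutant they were 1 in coq2 rts1 at 16 h, 36 and 12 in coq2 tco89 at 12 and 16 h, 0 in cox4 ras2 at 0 h, 16 and 1 in cox4 rts1 and 35 in cox4 tco89 at 16 h. The wt median change became -2.25, and RPS14B and RPL15B turned to 0.114 and 0.068. With no fold minimum the counts against wt were 119 and 112 in coq2, 123 and 120 in cox4, 41 and 121 in ras2 at 0 and 12 h, 16 (10 higher and 6 lower, a reversed balance), 65 and 109 in rts1, and 8, 97 and 102 in tco89. They were 40 in coq2 ras2 at 0 h, 56, 73 and 59 in coq2 rts1, 9 and 118 in coq2 tco89 at 0 and 16 h, 127 in cox4 ras2 at 0 h, 30, 64 and 55 in cox4 rts1 and 28, 62 and 102 in cox4 tco89, 36 in wt between 12 and 16 h, and 1003 over all interaction tests, against 375 with it. Pseudocount 5 left 1 gene in cox4 at 12 h. A ratio minimum of 2 left 9 of 21 pairs in wt, 7 of 15 over all strains and 43 of 159 summed over the mutants. With 1 library left out, counts ran from 0 to 14 in coq2 at 12 h and 13 to 30 at 16 h, 1 to 5 in cox4 at 12 h, 3 to 8 in rts1 at 12 h, 0 to 13 and 1 to 4 in tco89 at 12 and 16 h, 2 to 12 in coq2 rts1 at 12 h, 0 to 1 in cox4 ras2 at 0 h and 3 to 9 in cox4 rts1 at 16 h. Depth is unknown, so small differences of low genes such as RPL15B and RPS9A rest on 2 libraries a group.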
